A study of Homo sapiens with 6 samples.

Results

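Laminins, nidogens and integrins are the genes for the sheet-forming proteins of the basement membrane and for the cell surface receptors that hold cells to it. They were taken as every row of the count table whose symbol named a laminin alpha, beta or gamma chain, a nidogen, or an integrin alpha or beta subunit, which gave 40 of 28265 rows: 12 laminin chains, 2 nidogens, 18 alpha integrins and 8 beta integrins. RNA was sequenced from Huh7, an established human hepatocellular carcinoma cell line, 48 h after transduction with lentiviral particles. One group carried a vector that expressed LHX2, a LIM-homeodomain transcription factor, and the other carried the control vector (called CTRL), with 3 libraries in each group. The question was which transcripts differ when LHX2 is overexpressed, and both groups shared the lentiviral transduction and the culture medium. Whether the libraries of a group stem from separate cultures is not said in the labels. The p-values therefore measure the spread among these libraries, which may be technical.

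A laminin is a cross-shaped trimer of an alpha, a beta and a gamma chain, secreted as a unit and linked to collagen IV by nidogens. An integrin is a heterodimer of an alpha and a beta subunit, and the pair decides the ligand: ITGB1 partners most of the alpha subunits, the ITGAV subunit forms receptors for vitronectin, fibronectin and latent TGF-beta, and ITGB2 and ITGB7 form the leukocyte receptors. In normal liver the sinusoid lacks a continuous basement membrane, and laminins are found around bile ducts and vessels.

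The start regions of 4 members are shown because they had the lowest adjusted p of the members. Each is the RefSeq window of GRCh38.p14 from 250 bases before to 50 bases after the most upstream listed start, at chr2:186589806-186590105 (plus strand) for ITGAV, chr5:52787666-52787965 (plus) for ITGA1, chr5:52989102-52989401 (plus) for ITGA2 and chr3:49133001-49133300 (minus) for LAMB2. Capitals mark TAAT, the core that homeodomain proteins bind, on either strand.
ITGAV: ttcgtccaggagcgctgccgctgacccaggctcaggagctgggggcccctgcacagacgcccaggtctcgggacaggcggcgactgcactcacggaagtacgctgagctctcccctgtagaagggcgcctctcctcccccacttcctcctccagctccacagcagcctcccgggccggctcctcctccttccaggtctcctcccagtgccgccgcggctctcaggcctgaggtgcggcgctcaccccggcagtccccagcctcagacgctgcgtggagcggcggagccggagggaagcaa
ITGA1: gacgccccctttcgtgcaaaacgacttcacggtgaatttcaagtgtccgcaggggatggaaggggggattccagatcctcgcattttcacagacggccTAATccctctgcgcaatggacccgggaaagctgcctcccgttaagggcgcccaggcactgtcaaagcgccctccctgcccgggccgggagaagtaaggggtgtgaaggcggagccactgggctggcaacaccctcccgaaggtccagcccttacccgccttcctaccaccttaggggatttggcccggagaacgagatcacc
ITGA2: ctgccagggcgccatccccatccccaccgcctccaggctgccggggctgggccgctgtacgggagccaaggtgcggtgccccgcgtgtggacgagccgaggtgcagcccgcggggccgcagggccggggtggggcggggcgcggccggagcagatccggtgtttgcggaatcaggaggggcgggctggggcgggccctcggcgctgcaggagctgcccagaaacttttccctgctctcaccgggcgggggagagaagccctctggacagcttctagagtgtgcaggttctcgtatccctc
LAMB2: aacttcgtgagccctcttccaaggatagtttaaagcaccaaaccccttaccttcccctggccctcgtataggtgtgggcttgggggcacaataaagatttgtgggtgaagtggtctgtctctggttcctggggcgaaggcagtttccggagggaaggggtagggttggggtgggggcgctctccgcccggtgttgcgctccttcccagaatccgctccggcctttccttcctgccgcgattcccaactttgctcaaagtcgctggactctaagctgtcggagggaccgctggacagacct
TAAT occurred once among these 4 windows, in ITGA1 at position -152, and the windows held 58.7% to 72.7% G and C. RefSeq listed 35 such windows for 28 of the 40 members, and 13 of the 35 held TAAT, against 50.2% of all 35116 windows. The longer motif TAATTA, which contains TAAT, was in 0 of the 35 windows and in 4.84% of all windows. A match or its absence describes only the letters in these windows.

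The libraries held 30029313 to 35194438 counts with LHX2 and 32625405 to 39653681 with CTRL. LHX2 itself had 2535, 2427 and 3126 counts in the LHX2 libraries, against 1, 2 and 1 in the CTRL libraries. Of 10 hepatocyte-lineage markers all 10 were tested, TF rose and SERPINA1, HNF4A and TTR fell, with a summed level of 45764 to 50173 CPM in LHX2 and 49141 to 50516 CPM in CTRL libraries. CPM are counts-per-million with library sizes normalised by TMM. Among them AFP had a mean of 23084 CPM in LHX2 and 24742 in CTRL cells, and ALB 12311 CPM in LHX2 and 12170 in CTRL cells. Of 8 leukocyte markers 3 were tested and LYZ and CD68 rose, with a summed level of 612 to 678 CPM in LHX2 and 471 to 500 CPM in CTRL libraries, while CD3E and SPI1 had 0 counts everywhere and PTPRC at most 3. Of 8 fibroblast and stellate markers the 3 that could be tested, COL1A2, LUM and PDGFRA, rose, with a sum of 68.0 to 73.5 CPM in LHX2 and 35.3 to 38.4 CPM in CTRL libraries. The other 5 had too few counts for a test: COL3A1 had 2, 2 and 4 counts in LHX2 and 9, 7 and 8 in CTRL libraries, and PDGFRB had 1, 1 and 2 in LHX2 and 6, 10 and 6 in CTRL libraries, both with LHX2 below CTRL without overlap. COL1A1 had 8, 10 and 10 counts in LHX2 and 9, 8 and 4 in CTRL libraries, and DCN and ACTA2 had at most 1 count. Of 6 endothelial markers PECAM1 fell and 4 had 0 counts in all libraries, with sums of 2.78 to 3.22 CPM in LHX2 and 3.75 to 4.28 CPM in CTRL libraries. The part of these markers in the results below was not tested, and in bulk RNA fewer cells of a type and less RNA per cell cannot be told apart.

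LHX2 cells carried more transcripts of the integrin subunits ITGAV, ITGA1 and ITGA2 and of the laminin chains LAMA5 and LAMB2, each by 1.43-fold to 1.64-fold. ITGB1 and LAMB1, the most abundant members per length in LHX2 cells, rose by less, 1.14-fold and 1.13-fold. The laminin receptor subunit ITGA6 and the laminin chain LAMC1 fell, by 0.20 and 0.13 on the log2 scale. Of the 40 members 26 had enough counts to be tested, and 12 rose, 2 fell and 12 did not pass at a Benjamini-Hochberg adjusted p of 0.05 in the edgeR quasi-likelihood test. Over all 14533 genes tested the called share was 32.5%, with 16.6% higher and 15.8% lower. This balance moved with the scaling: 2415 genes were higher and 2301 lower as reported, 2800 higher and 1886 lower with library totals alone, and 2231 higher and 2887 lower under a correction for transcript length and GC content. In the same fits the members numbered 12 higher and 2 lower, 12 and 2, and 10 and 3. The share among the tested members was 46.2% higher and 7.69% lower, and their median log2 fold change was 0.18, against 0.01 over all genes tested. Leaving out CTRL replicate 2 left 1 member lower. The remaining 14 members had 0 to 8 counts in any library and gave no test.

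**Figure D1:**
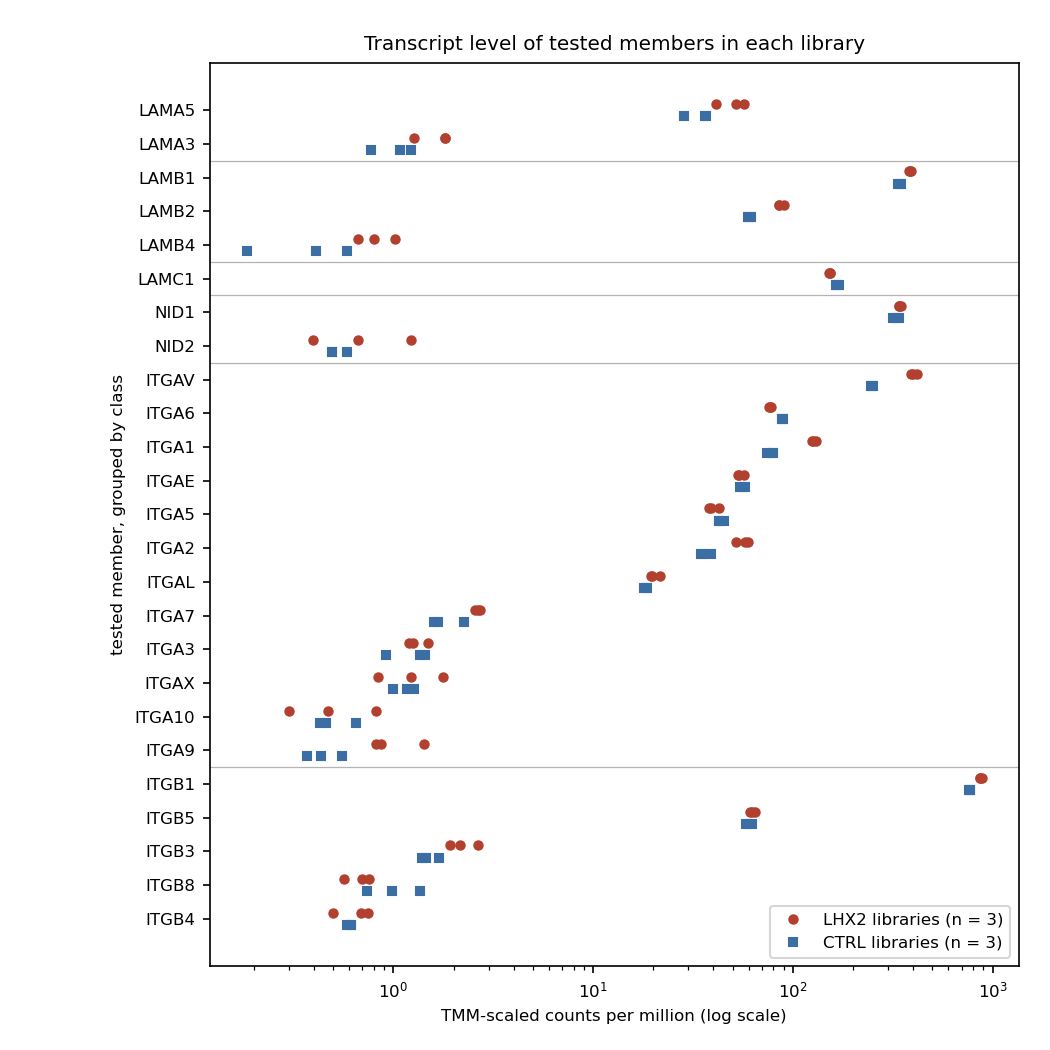
Level of 25 of the 26 tested members in each library, as TMM-scaled counts-per-million on a log axis. Circles are the 3 LHX2 libraries and squares, drawn just below, the 3 CTRL libraries. ITGB1 lies highest, near 873 CPM with LHX2 and 769 CPM with CTRL, and the ITGAV, ITGA1, ITGA2 and LAMB2 groups do not overlap.

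Among the laminin alpha chains, which bind the cell's receptors and set the character of a laminin, LAMA5 was nearly the whole pool. In TPM, the transcript level after counts are divided by exon length, it made up 96.2% ± 0.18 of the alpha chains in LHX2 and 96.3% ± 0.34 in CTRL cells (SD, n = 3). LAMA5 encodes the alpha chain of the widespread laminins of adult epithelial basement membranes and lies on chromosome 20 from 62309065 to 62367312 (GRCh38). It had 41.4, 52.2 and 56.9 CPM in the LHX2 libraries and 36.8, 36.3 and 28.5 CPM in the CTRL libraries. Every LHX2 library lay above every CTRL library, but both groups were spread widely. LAMA5 rose 1.48-fold (log2 fold change 0.57 ± 0.10, SE; edgeR adjusted p = 7.43e-04). Under a correction that takes the dependence of counts on transcript length and GC content out of each library, the change was smaller, 0.27 on the log2 scale.

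LAMA3, the alpha chain that joins LAMB3 in the laminin of hemidesmosomes, was rare, with 38, 55 and 65 counts in LHX2 and 35, 48 and 25 counts in CTRL libraries. Scaled for library size this was 1.27, 1.81 and 1.80 CPM in LHX2 and 1.08, 1.22 and 0.770 CPM in CTRL libraries, and the groups were apart by a narrow margin. LAMA3 rose by 0.66 ± 0.23 on the log2 scale (SE, edgeR adjusted p = 0.0387). That call was lost without LHX2 replicate 2 or 3 (0.58 and 0.57), without CTRL replicate 1 or 3 (0.69 and 0.50), with a replicate block (0.67), with DESeq2 (0.66) and under the length and GC correction (0.49). Its partner LAMB3 had 0 counts in the 3 LHX2 libraries and 1, 2 and 0 in the CTRL libraries. LAMA1, the embryonic chain, had 0 counts in all 6 libraries, which allows at most 0.0757 to 0.0999 CPM per library (3 counts, counting error only), and the mesenchymal and vascular chains LAMA2 and LAMA4 had at most 8 counts in a library.

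The laminin beta chains were led by LAMB1 and LAMB2, which replace each other in the trimer. LAMB1, on chromosome 7 from 107923799 to 108003161, had 382, 389 and 388 CPM in LHX2 and 335, 348 and 342 CPM in CTRL libraries. It was higher in every LHX2 library, and it rose 1.13-fold (0.18 ± 0.04, SE; edgeR adjusted p = 0.00175). Over the 16 alternatives its log2 fold change ranged from 0.12 to 0.20. LAMB2, on chromosome 3 from 49121114 to 49133050, had 85.5, 85.7 and 90.0 CPM in LHX2 and 60.5, 61.8 and 59.9 CPM in CTRL libraries. The distance between the groups was several times the spread within them, and LAMB2 rose 1.43-fold (0.52 ± 0.04, SE; edgeR adjusted p = 2.51e-07). The LAMB2 change ranged from 0.38 to 0.55 on the log2 scale over the 16 alternatives. LAMB2 took 19.5% ± 0.44 of beta chain TPM in LHX2 and 16.1% ± 0.23 in CTRL cells, and LAMB1 80.3% ± 0.40 in LHX2 and 83.8% ± 0.18 in CTRL cells (SD, n = 3). LAMB4, a little-studied beta chain, had 24, 31 and 24 counts in LHX2 and 6, 16 and 19 counts in CTRL libraries. Scaled, the lowest LHX2 library had 0.666 CPM and the highest CTRL library 0.585 CPM. LAMB4 rose by 1.06 ± 0.35 on the log2 scale (SE, edgeR adjusted p = 0.0329), and the call was lost without LHX2 replicate 1 or 2 (1.07 and 0.88), without CTRL replicate 1 or 2 (0.74 and 1.09), with a replicate block (1.08) and with DESeq2 (1.06).

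The gamma chain pool was LAMC1, the gamma chain of most laminins and the one that binds nidogen, at 99.5% of gamma chain TPM in LHX2 and 99.7% in CTRL cells. LAMC1, on chromosome 1 from 183023420 to 183145592, had 152, 153 and 153 CPM in LHX2 and 165, 167 and 170 CPM in CTRL libraries. Both groups were tight, and they did not overlap. LAMC1 fell by 0.13 ± 0.04 on the log2 scale (SE, edgeR adjusted p = 0.0117), against the direction of LAMA5, LAMB1 and LAMB2. The log2 fold change was -0.24 under the length and GC correction, and the call was lost without CTRL replicate 2 (-0.13). LAMC3 had 1 to 5 counts in any library.

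Nidogens did not pass the test. NID1, which bridges LAMC1-containing laminins and collagen IV, had 341, 338 and 347 CPM in LHX2 and 316, 339 and 333 CPM in CTRL libraries. These groups overlapped, and the log2 fold change of 0.06 had a 95% interval of -0.03 to 0.14 (edgeR adjusted p = 0.306) and was -0.02 under the length and GC correction. NID2 was rare, at 20, 12 and 44 counts in LHX2 and 16, 23 and 16 counts in CTRL libraries, with an interval of -0.22 to 1.34.

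**Figure D2:**
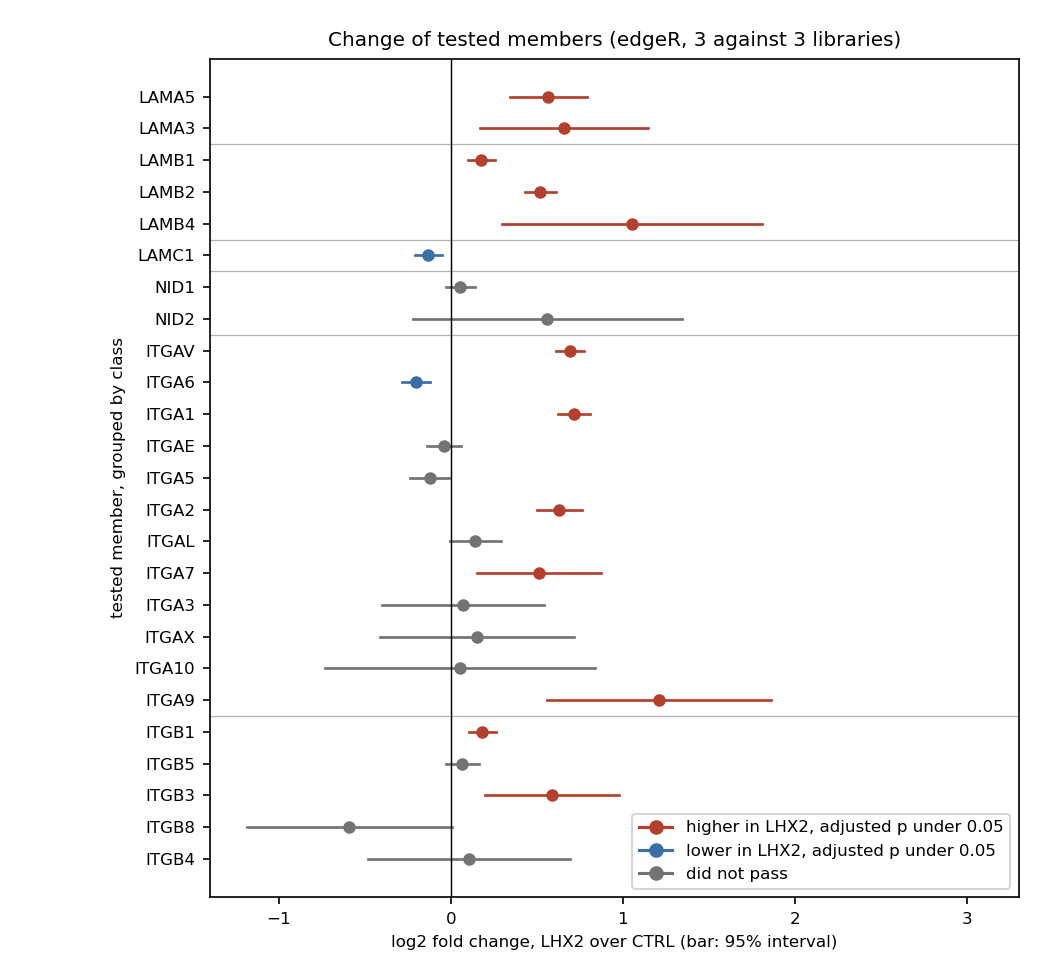
Log2 fold change of LHX2 over CTRL for 25 of the 26 tested members, with its 95% interval from the edgeR fit; colours give the call. The wide intervals belong to members with few counts, such as ITGA9 and LAMB4, while LAMC1 and ITGA6 are the members that fell.

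Per length, the laminin chains differed far more among themselves than between the groups. In LHX2 cells LAMB1 (183 ± 4.61 TPM, SD, n = 3) and NID1 (172 ± 4.95 TPM) stood first, followed by LAMC1 at 57.1 ± 1.07, LAMB2 at 44.6 ± 2.04 and LAMA5 at 13.0 ± 2.25 TPM. In CTRL cells NID1 (158 ± 5.32 TPM) and LAMB1 (155 ± 2.37 TPM) were within their spread of each other, and LAMC1 (59.9 ± 0.903), LAMB2 (29.7 ± 0.371) and LAMA5 (8.37 ± 1.14 TPM) followed. Summed over each class, alpha chains came to 13.5 ± 2.35 TPM in LHX2 and 8.70 ± 1.2 TPM in CTRL cells, gamma chains to 57.4 ± 1.08 in LHX2 and 60.1 ± 0.883 in CTRL cells, and beta chains to 228 ± 6.42 in LHX2 and 185 ± 2.57 in CTRL cells. The alpha class was thus the scarcest of the chain classes in both groups on the TPM scale. LAMB1 and NID1 also led when the longest transcript replaced the merged exons as the length, with LAMB1 at 180 and NID1 at 157 TPM in LHX2 cells and LAMB1 at 152 and NID1 at 144 TPM in CTRL cells.

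**Figure D3:**
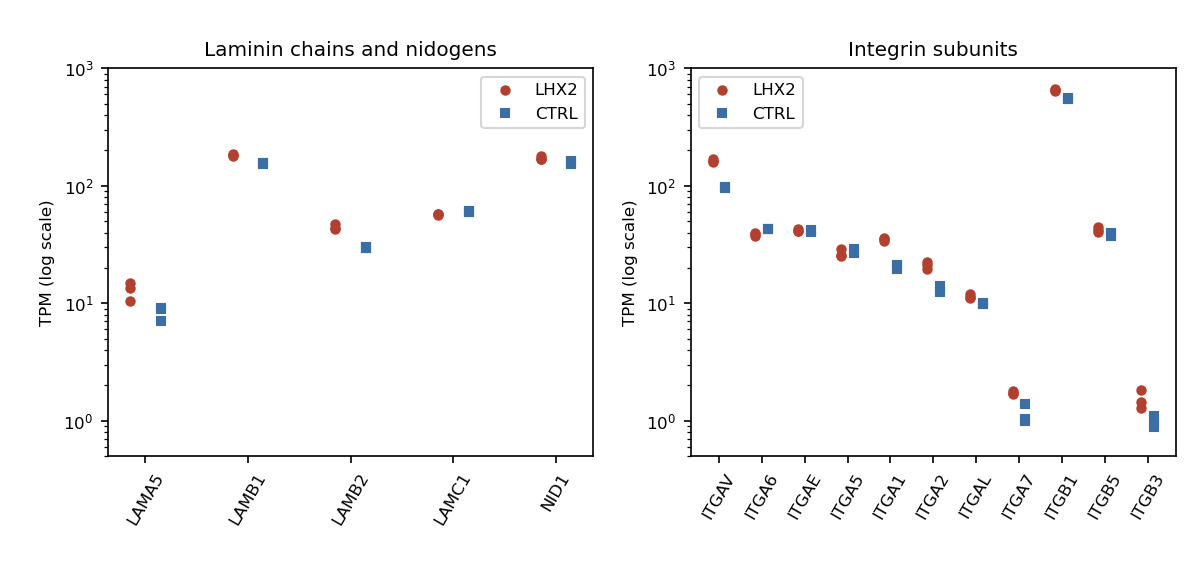
Level per transcript length (TPM, log axis) of the laminin chains and nidogens (left panel) and integrin subunits (right panel) with a mean of at least 1 TPM in either group. Circles are LHX2 libraries and squares CTRL libraries; LAMA5 is the lowest laminin shown and ITGB1 the highest integrin.

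Among the integrin alpha subunits the clearest rises were in ITGAV and in the collagen receptor subunits ITGA1 and ITGA2, which pair with ITGB1. ITGAV, on chromosome 2 from 186590056 to 186680901, had 399, 417 and 391 CPM in LHX2 and 249.1, 247.1 and 251.3 CPM in CTRL libraries. The CTRL libraries were nearly equal, and all LHX2 libraries were far above them. ITGAV rose 1.61-fold (0.69 ± 0.04, SE; edgeR adjusted p = 4.46e-09). It was the most abundant alpha subunit per length in both groups, with 164 ± 5.25 TPM in LHX2 and 97.6 ± 1.17 TPM in CTRL cells, or 47.9% ± 0.69 of alpha subunit TPM in LHX2 and 38.2% ± 0.35 in CTRL cells (SD, n = 3).

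ITGA1, on chromosome 5 from 52787916 to 52959209, had 125, 131 and 127 CPM in LHX2 and 73.9, 79.5 and 79.9 CPM in CTRL libraries. The groups were well apart, and ITGA1 rose 1.64-fold (0.72 ± 0.04, SE; edgeR adjusted p = 1.11e-08). PELO, a gene whose span overlaps that of ITGA1, did not pass (-0.01 ± 0.05, SE; adjusted p = 0.853). ITGA2, which starts 30142 bases beyond the end of ITGA1 on the same chromosome, had 57.7, 59.8 and 51.8 CPM in LHX2 and 34.6, 35.6 and 39.0 CPM in CTRL libraries. Its groups were also apart, and it rose 1.55-fold (0.63 ± 0.06, SE; edgeR adjusted p = 2.16e-06). The other collagen-binding subunits were rare: ITGA10 had 9 to 25 counts in LHX2 and 14 to 21 counts in CTRL libraries and did not pass (0.05, 95% interval -0.73 to 0.84), with a negative value in some alternatives, and ITGA11 had at most 8 counts in a library.

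The laminin-binding alpha subunits were led by ITGA6, which pairs with ITGB1 or ITGB4. It had 75.8, 77.6 and 77.1 CPM in LHX2 and 88.5, 89.1 and 87.9 CPM in CTRL libraries. Both groups were tight and did not overlap, and ITGA6 fell by 0.20 ± 0.04 on the log2 scale (SE, edgeR adjusted p = 8.54e-04). As a share of alpha subunit TPM, ITGA6 was 11.3% ± 0.22 in LHX2 and 16.7% ± 0.22 in CTRL cells (SD, n = 3), a share that also moves with the rise of ITGAV. ITGA7, known as the laminin receptor subunit of muscle, had 80, 83 and 92 counts in LHX2 and 52, 88 and 54 counts in CTRL libraries. Scaled, these were 2.66, 2.72 and 2.55 CPM in LHX2 and 1.60, 2.25 and 1.66 CPM in CTRL libraries, without overlap. ITGA7 rose by 0.51 ± 0.17 (log2, SE; edgeR adjusted p = 0.0305), and the call was lost without LHX2 replicate 1 or 2 (0.50 and 0.49), without CTRL replicate 1 or 3 (0.42 and 0.44), with DESeq2 (0.51) and under the length and GC correction (0.42). ITGA3, an epithelial laminin receptor subunit, had 38 to 45 counts in LHX2 and 30 to 53 counts in CTRL libraries and did not pass (0.07, 95% interval -0.40 to 0.54), with a negative value in some alternatives.

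Of the subunits for fibronectin and related ligands, ITGA5, the classical fibronectin receptor subunit, had 39.1, 38.0 and 42.5 CPM in LHX2 and 45.1, 42.7 and 42.8 CPM in CTRL libraries. The groups were adjacent without overlap, and ITGA5 did not pass (-0.12 ± 0.05, SE; edgeR adjusted p = 0.0943). It passed as lower under the length and GC correction (-0.21) and without LHX2 replicate 3 (-0.17). ITGA9, which with ITGB1 binds tenascin and osteopontin, had 26, 25 and 51 counts in LHX2 and 18, 17 and 12 counts in CTRL libraries. LHX2 replicate 3 stood above the others, and ITGA9 rose 2.31-fold (1.21 ± 0.30, SE; edgeR adjusted p = 0.00675), a call that held at 0.90 without that library. ITGA9-AS1, a noncoding gene whose span overlaps ITGA9, had 36, 27 and 33 counts in LHX2 and 23, 22 and 20 counts in CTRL libraries (0.67 ± 0.25, SE; adjusted p = 0.0561). No source used here gives the strand option of the counting, so reads of the overlapping pair cannot be told apart. ITGA4, ITGA8 and ITGA2B had at most 8 counts in a library.

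The leukocyte alpha subunits were partly detected without their beta partners. ITGAL, known from lymphocytes, had 21.6, 19.4 and 19.8 CPM in LHX2 and 18.04, 18.4 and 18.7 CPM in CTRL libraries. The groups lay apart by a small margin, and ITGAL did not pass (0.14, 95% interval -0.01 to 0.29; edgeR adjusted p = 0.135). Its partner ITGB2 had 0 counts in all 6 libraries. ITGAE, which binds E-cadherin, had 56.7, 54.0 and 53.2 CPM in LHX2 and 54.6, 57.4 and 56.2 CPM in CTRL libraries and overlapped between the groups (-0.04, interval -0.14 to 0.06). Its partner ITGB7 also had 0 counts in all 6 libraries, and the ITGAE span overlaps that of HASPIN (584 to 764 counts in LHX2 and 743 to 883 in CTRL libraries). ITGAX had 30 to 54 counts in LHX2 and 38 to 41 in CTRL libraries and did not pass (0.15, interval -0.41 to 0.71), with a negative value without LHX2 replicate 2. ITGAM had at most 2 counts and ITGAD 0.

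The beta subunits were dominated by ITGB1, the common partner, at 93.6% ± 0.25 of beta subunit TPM in LHX2 and 93.2% ± 0.16 in CTRL cells (SD, n = 3). ITGB1, on chromosome 10 from 32900318 to 32958230, had 869, 883 and 866 CPM in LHX2 and 770, 771 and 765 CPM in CTRL libraries. Every LHX2 library was higher, and ITGB1 rose 1.14-fold (0.18 ± 0.04, SE; edgeR adjusted p = 0.00126). ITGB5, a vitronectin receptor subunit that pairs with ITGAV, had 60.9, 62.6 and 64.8 CPM in LHX2 and 59.4, 62.1 and 58.4 CPM in CTRL libraries. These groups overlapped, and ITGB5 did not pass (0.07, 95% interval -0.03 to 0.16; adjusted p = 0.290).

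ITGB3, the other vitronectin partner of ITGAV, was scarce, with 58, 66 and 96 counts in LHX2 and 45, 57 and 55 counts in CTRL libraries. Scaled, this was 1.93, 2.17 and 2.66 CPM in LHX2 and 1.38, 1.45 and 1.69 CPM in CTRL libraries, and it rose 1.503-fold (0.59 ± 0.18, SE; edgeR adjusted p = 0.0223). The call was lost without LHX2 replicate 3 (0.44), without CTRL replicate 1 or 2 (0.53 and 0.56) and with DESeq2 (0.58). ITGB8, whose pair with ITGAV activates latent TGF-beta, had 17, 23 and 25 counts in LHX2 and 44, 29 and 32 counts in CTRL libraries and did not pass (-0.59, 95% interval -1.19 to 0.01; adjusted p = 0.123). ITGB4, the hemidesmosome subunit, had 15 to 27 counts in LHX2 and 19 to 24 counts in CTRL libraries (0.11, interval -0.48 to 0.69), with a negative value in some alternatives, and ITGB6 had at most 8 counts. Summed over each class, beta subunits reached 699 ± 13.9 TPM in LHX2 and 592 ± 2.83 TPM in CTRL cells, and alpha subunits 343 ± 6.40 TPM in LHX2 and 255 ± 2.13 TPM in CTRL cells (SD, n = 3). Beta subunit transcripts exceeded alpha subunit transcripts on the TPM scale in both groups.

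The LHX2 and CTRL libraries did not overlap in 17 of the 26 tested members, with LHX2 above in 14 and below in 3. Over all genes tested the groups did not overlap in 44.9%, with LHX2 above in 22.9% and below in 22.1%. Of the 14 called members 10 changed at least 1.3-fold, and of the 4716 genes called over all genes tested 1732 did. Of the 14 tested members with a mean of at least 150 counts 9 were called, and of the 12 with fewer counts 5 were called. The same split by depth was not made over all genes, so these 2 counts only describe the members. The calls for ITGAV, ITGA1, ITGA2, ITGA6, ITGA9, ITGB1, LAMA5, LAMB1 and LAMB2 passed in each of the 16 alternatives, except that ITGA9 was not tested where at least 1 CPM in 3 libraries was required.

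**Figure D4:**
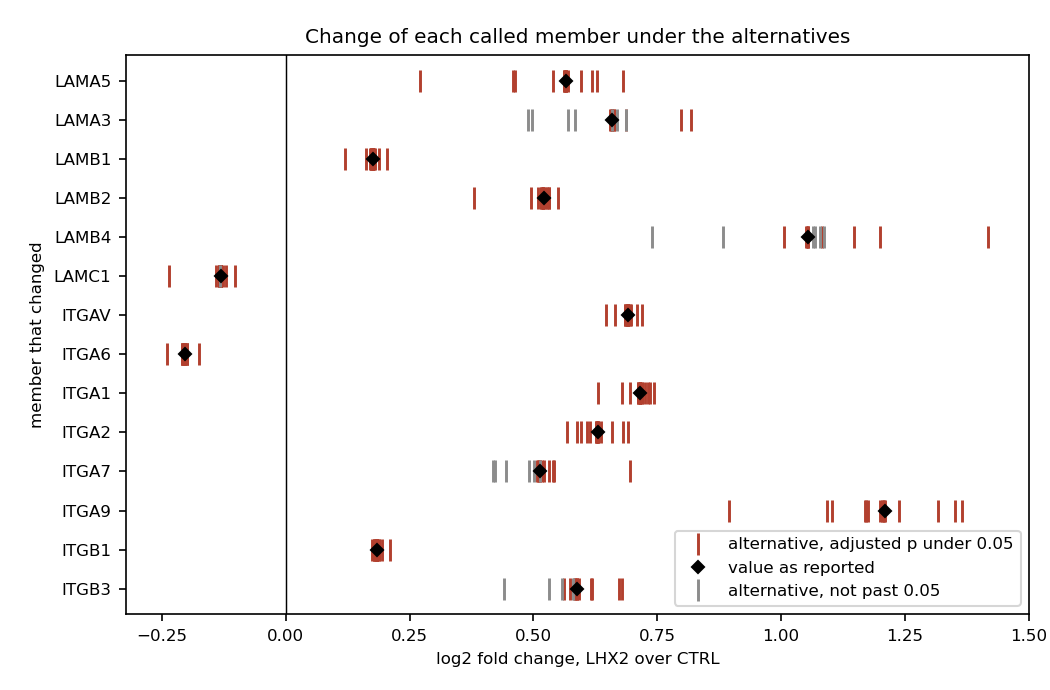
Log2 fold change of the 14 called members as reported (diamond) and under each alternative (ticks, grey where the adjusted p did not pass 0.05). Grey ticks occur for LAMA3, LAMB4, ITGA7 and ITGB3, the single one of LAMC1 at -0.13 lies under others, and LAMA5 has its lowest tick at 0.27.

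Partners of these genes were listed by role, with earlier results of these data known, so their counts are only described. In the basement membrane, 15 of 24 listed partners were tested. Of these 8 (53.3%) rose, 0 fell and 7 did not pass, with a median log2 fold change of 0.34. Over all genes tested 16.6% were higher and 15.8% lower. FREM1, a matrix protein of embryonic epithelial basement membranes, had 6.53, 6.53 and 6.22 CPM in LHX2 and 1.41, 1.25 and 1.23 CPM in CTRL libraries, and it rose by 2.305 ± 0.13 on the log2 scale (SE, edgeR adjusted p = 6.12e-09). The collagen IV chains COL4A6 (log2 fold change 1.997) and COL4A5 (0.99) and the laminin-binding netrin NTN4 (0.79) also rose. The common collagen IV chains COL4A1 and COL4A2 had at most 4 counts in a library. At an unadjusted p under 0.05 edgeR gave 1 lower gene, TINAGL1 (-0.82, adjusted p = 0.0582). The number lower was 1 with limma-voom, 0 with DESeq2 and 2 without LHX2 replicate 3 or under the length and GC correction.

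Among the non-laminin integrin ligands 19 of 24 were tested, 9 (47.4%) rose, 3 (15.8%) fell and 7 did not pass, with a median of 0.15. The shares over all genes tested were 16.6% higher and 15.8% lower. VTN, the ITGAV ligand vitronectin, had 1157, 1085 and 1076 CPM in LHX2 and 537, 524 and 541 CPM in CTRL libraries. It rose 2.07-fold (1.05 ± 0.04, SE; edgeR adjusted p = 9.11e-11), with no overlap between the groups. CCN1, a matricellular ligand of ITGAV receptors, had a log2 fold change of 0.75, and the fibrinogen chains FGG (-0.71) and FGA (-0.70) fell. Their partner chain FGB did not pass (-0.10 ± 0.04, SE; edgeR adjusted p = 0.0693). CDH1, the ITGAE ligand E-cadherin, was the remaining gene that fell, at -0.35.

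In the integrin adhesome, the cytoplasmic proteins that link integrins to actin, 30 of 33 were tested. Of these 15 rose, 4 (13.3%) fell and 11 did not pass, with a median of 0.20. For comparison, 16.6% of all genes tested were higher and 15.8% lower. The largest called rises in the adhesome were in FLNC (1.01), a filamin, and the endocytic adaptor DAB2 (0.98). LIMS1 (0.50), which binds the integrin-linked kinase, and FLNA (0.48), a filamin, came next. FLNC was scarce, with a mean of 2.54 CPM in LHX2 and 1.26 CPM in CTRL cells. DAB2 had 46.4, 47.1 and 45.4 CPM in LHX2 and 24.2, 22.6 and 23.8 CPM in CTRL libraries, and the groups lay far apart. The integrin activator TLN1 rose (0.41 ± 0.04, SE; edgeR adjusted p = 1.30e-06), while the genes that fell, RSU1, FERMT2, PTK2 and ACTN1, did so by small amounts, with log2 fold changes of -0.18, -0.16, -0.15 and -0.12, and without CTRL replicate 2 only 1 gene was lower. Of the membrane partners and laminin receptors outside the integrins, 10 of 12 were tested. Of these 7 (70.0%) rose, 0 fell and 3 did not pass, with a median of 0.24. The shares over all genes tested were again 16.6% higher and 15.8% lower. The rises were led by the hemidesmosome linkers DST (0.53) and PLEC (0.34). The tetraspanins CD151 (0.31), which associates with laminin-binding integrins, and CD63 (0.30) followed. Of the 7 that rose only 1, DST, changed at least 1.3-fold. Under the length and GC correction 4 of these 10 were higher. DAG1, which encodes the laminin receptor dystroglycan, did not pass (0.10 ± 0.04, SE; edgeR adjusted p = 0.0766). None of the 10 was lower at an unadjusted p under 0.05 in edgeR (0 genes), and DESeq2 and limma-voom also called 0 lower.

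**Figure D5:**
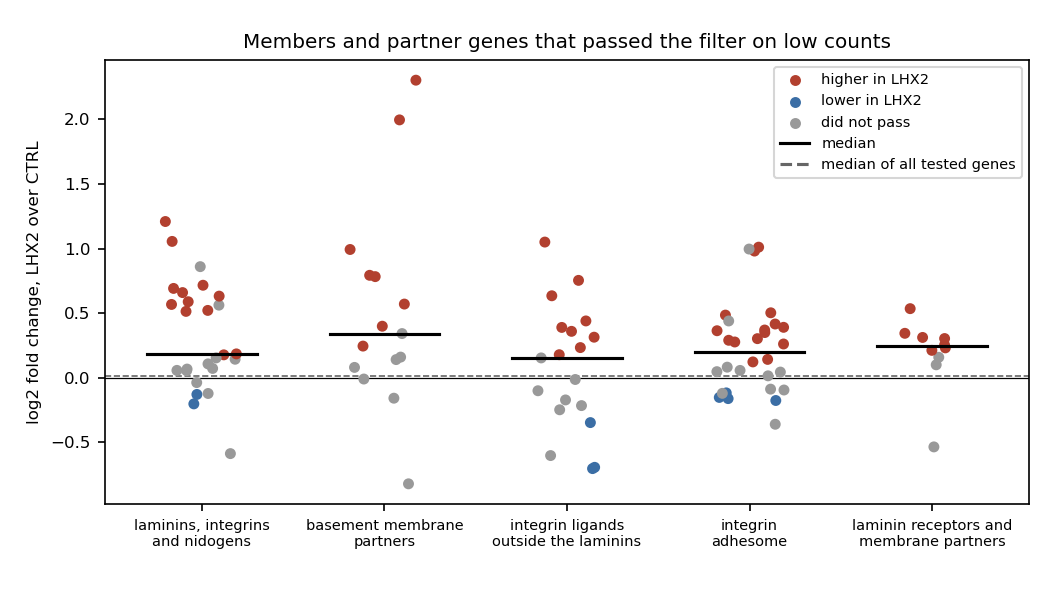
Log2 fold change of LHX2 over CTRL for the tested members and for the tested genes of the partner lists. Members and lists were chosen with earlier results of these data known. Each point is a gene coloured by its call, black bars are list medians (0.18 for the laminins, integrins and nidogens, 0.34 for the basement membrane partners) and the dashed line is the median of all tested genes at 0.01.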

How the data were processed

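Per the labels' protocols, RNA was column-purified and sequenced from mRNA libraries of a strand-specific kit. Per the submitters' processing notes reads were handled with featureCounts 2.0.0, TopHat2 2.1.1, SAMtools 1.9, FastQC, bcl2fastq 2.20 and Bowtie2 2.3.5.1 on build GRCh38. No source used here gives the annotation or the strand option of the counting. The deposited values are raw counts of reads per gene, without normalization. The control column written in another form was taken as replicate 1 by the number it ends in. Intervals cover these libraries and counting error only, as no molecular identifiers are named.

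Low counts were removed with filterByExpr (minimum count 10, total 15, proportion 0.7), leaving 14533 genes. Counts were scaled by TMM and tested with edgeR 4.0.16 in R 4.3.3 (quasi-likelihood F-test, group as the single term, Benjamini-Hochberg over all genes tested); standard errors came from the F statistic. TPM used merged exon lengths of GENCODE release 29 (basic), which 40 of 40 members had. TPM is not TMM-scaled and served to compare genes. TPM values of LHX2 and CTRL cells are given as description, without a test, and can differ from the scaled change. ITGAE, for one, had a mean of 41.7 TPM in LHX2 and 41.0 TPM in CTRL cells. Its mean CPM were 54.6 in LHX2 and 56.1 in CTRL cells. Positions are from RefSeq GRCh38.p14. The length and GC correction was a loess surface per library (span 0.3), centred on the library median. The fit was also run on simulated counts with known changes, built from the levels and dispersions of these data. The outcome of that run is not reported here. Alternatives used DESeq2 1.42.0 and limma 3.58.1, and tables and plots used Python 3.11.15.

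Members and partner lists were chosen with earlier results of these data known. All members enter the counts, and 1 tested member that did not pass is not reported here by itself. Members with at least a 1.3-fold called change and the 3 most abundant of the laminins, alpha and beta integrins have values in every library, as do further members for context; from each partner list up to 4 genes with the largest called change are named. FREM1, VTN and DAB2 in every library, and TLN1, DAG1, TINAGL1, COL4A1, COL4A2, CDH1, FGB, RSU1, FERMT2, PTK2 and ACTN1, were named after their values were seen. Genes that overlap or adjoin a member were added for their position.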

Additional observations from a re-analysis of the deposited data

How the results depend on the processing

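The count of laminins, integrins and nidogens was 12 higher and 2 lower as reported, and between 8 and 12 higher over the 16 alternatives. Leaving out 1 library gave 9 to 10 higher and 1 to 3 lower, with 1 lower without CTRL replicate 2. Over all genes tested those fits gave 1850 to 2316 higher and 1699 to 2251 lower, against 2415 and 2301 as reported. DESeq2 gave 8 members higher and, over all genes tested, 2071 higher. Under the length and GC correction 10 members were higher and 3 lower. Of the basement membrane partners 1 was lower with limma-voom, 2 under the length and GC correction and 0 to 2 with a library left out. Lower adhesome genes numbered 1 to 4 with a library left out, and 4 membrane partners were higher under the length and GC correction. The causes were not tested.

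No called member changed direction under the 16 alternatives. Members that had not passed did so under these settings: ITGA10 was -0.0324 with limma-voom, -0.0120 under the length and GC correction and -0.37 to 0.31 with a library left out; ITGA3 was -0.0538 under the length and GC correction and -0.10 to 0.18 with a library left out; ITGB4 was -0.0699 and -0.0236 to 0.25 likewise; NID1 was -0.0171 under that correction; and ITGAX was -0.16 to 0.40 with a library left out. Of 409 member values under alternatives 370 kept both direction and side of the threshold, 24 lost the call and 3 gained it.

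Same-numbered libraries had correlations of -0.0555, -0.0735 and -0.195 between their deviations from the group means. Differently numbered LHX2 and CTRL libraries had -0.0717 to 0.133. With 3 libraries in each group these values cannot settle whether the replicate numbers pair the libraries. A replicate block gave 10 members higher and 2 lower, and 1936 genes higher and 1832 lower among all genes tested, against 2415 and 2301 without it. Of all called genes 51.2% were higher as reported, 59.8% with library totals alone and 43.6% under the length and GC correction. Depth limits the 12 tested members with a mean under 150 counts, whose intervals are wide, and leaves the 14 untested members without a comparison.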

Other observations

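Several members lie next to each other in the genome. The spans of LAMB4 and LAMB1 lie 8500 bases apart on chromosome 7, and their log2 fold changes were 1.06 and 0.18. ITGA2 and ITGA1, given above, had 0.63 and 0.72. ITGAM, ITGAX and ITGAD stand side by side on chromosome 16, and ITGAX was the one with enough counts to be tested. Coordinates are those of RefSeq GRCh38.p14, and no test of neighbouring genes was made.

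Other genes whose spans overlap a member gave these values. METTL7B and BLOC1S1, which overlap ITGA7, had log2 fold changes of -0.01 and 0.22, and neither passed (edgeR adjusted p = 0.960 and 0.0659). GALK1, which overlaps ITGB4, had -0.23 (adjusted p = 0.178), and RTRAF, which overlaps NID2, had -0.05 (adjusted p = 0.456). The antisense genes LAMA5-AS1 and LAMC1-AS1 had 0 counts in all libraries, and ITGA6-AS1 had 2, 0 and 2 counts in LHX2 libraries and 0 in each CTRL library.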
